A study of Homo sapiens with 6 samples.

Results

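The genes described here are 35 genes of cholesterol and fatty acid synthesis, taken by symbol from a table of 15379 genes measured in HaCaT cells after daily mild heat. HaCaT is an immortalised line of human keratinocytes, the main cells of the epidermis. The control cells were held at 37C and the heated cells at 41C, in both cases for 1 h on each of 3 days, and each temperature had 3 RNA sequencing libraries. The line is of a single origin, no genetic change or other agent is named for either group, and nothing in the labels states whether the 3 libraries of a temperature came from different dishes, so the p-values below refer to variation among libraries that may be partly technical. The sources used here give neither the medium and its lipid content nor the delay between the last exposure and RNA extraction. The 35 genes fall into a sterol arm of 18 enzymes, a fatty acid arm of 12 enzymes and 5 regulators, and each had a row in the count table and passed the low-count filter.

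Cells build cholesterol from acetyl-CoA through mevalonate, isoprenoids, squalene and lanosterol, and build fatty acids from the same acetyl-CoA through malonyl-CoA. Transcription of both routes is driven by the SREBP factors, encoded by SREBF1 and SREBF2. These factors are held in the endoplasmic reticulum by INSIG proteins while sterol is plentiful, and are carried by SCAP to the Golgi for cleavage when it is scarce. In the epidermis cholesterol and fatty acids are, with ceramides, the lipids of the permeability barrier, and keratinocytes make much of both themselves.

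The libraries held 19659112 to 20856144 counts, of which 1.56 to 1.68% fell on the 35 genes. All 8 keratinocyte markers (KRT5, KRT14, TP63, KRT6A, DSG3, LAMB3, COL17A1 and SFN) were detected, with a summed level of 6488 to 7154 CPM (counts per 1e6 counts, scaled between libraries) at 37C and 7599 to 7880 CPM at 41C, and 4 of them rose. Their part in the results below was not tested. Marker lists of other cells summed to at most 30.2 CPM in any library for endothelial cells (of which CDH5 gave up to 26.6), 18 for fibroblasts (COL3A1 up to 14.8), 6.21 for melanocytes, 2.28 for leukocytes and 0.455 for adipocytes and sebocytes. The leukocyte gene PTPRC, the fibroblast gene PDGFRB and the melanocyte genes TYRP1 and DCT were at or near 0, with at most 0.101 CPM. Other genes of those lists were detected in every library at low levels, namely MITF (2.38 to 3.6 CPM), PMEL (1.61 to 2.96), COL1A1 (2.17 to 2.78), DCN (0.679 to 1.37), CD74 (0.576 to 1.31) and CD14 (0.243 to 0.86). So were VWF (1.76 to 3.29), PECAM1 (0.101 to 0.405) and PLIN1 (0.101 to 0.351). Of 6 heat response genes 2 passed, both higher at 41C: HSPA1A, an inducible heat shock gene (0.30 ± 0.05 on the log2 scale, edgeR adjusted p = 0.00498), and the constitutive chaperone gene HSPA8 (0.21 ± 0.05, edgeR adjusted p = 0.0364). HSPA1A and HSPA1B are near-identical copies that may share reads. HSPA1B, HSPH1, DNAJB1 and HSP90AA1 had log2 changes of 0.17, 0.23, 0.14 and 0.17 and did not pass (edgeR adjusted p = 0.108, 0.13, 0.182 and 0.4535).

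None of the genes of lipid synthesis passed the test for a difference between 41C and 37C. Of the 35 genes, 0 were higher and 0 were lower by edgeR's quasi-likelihood test (smallest adjusted p = 0.277, for INSIG1), against 1.09% of the 12056 genes tested, 0.821% of them higher and 0.265% lower. limma-voom also called 0 of the 35, and DESeq2 called 0 of the 25 members to which it gave an adjusted p. Without adjustment 4 of the 35 had p under 0.05, all lower at 41C, namely INSIG1, TM7SF2, FDPS and FDFT1, where 13.7% of all genes tested had p under 0.05 in either direction and 6.12% did so with a lower level at 41C. The 3 libraries of one temperature lay wholly above the 3 of the other for 6 of the 35 genes (17.1%), against 20% of all genes tested. Of the 35 genes, 5 were separate and lower at 41C, against 8.84% of all genes tested. SREBF2 alone was separate and higher, against 11.2%. The share in both directions together is near its background, so it is not a result about the 35 genes. The share lower at 41C is above its background, and that excess was not tested. In bulk RNA a lower level cannot be told apart from fewer cells that express the gene.

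The data bound the size of any difference in most of these genes. The 95% interval of the fold lay wholly within 1.2-fold in either direction for 30 of the 35 genes, compared with 51.7% of all genes tested. The median standard error of the log2 change was 0.056 for the 35 genes and 0.079 over all genes tested. All of the 35 but TM7SF2, HSD17B7, FADS1, FADS2 and PMVK had at least 1060 counts in every library. The 35 genes were not matched to all genes by counts, so whether depth accounts for their narrower intervals was not tested. The 5 genes with wider intervals were TM7SF2, HSD17B7, FADS1, FADS2 and STARD4. The first 4 had the fewest counts of the 35 (80 to 123 counts per library for TM7SF2), whereas STARD4 had 1063 to 1349 counts and varied between replicates. These are intervals for single genes, not adjusted for their number.

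**Figure D1:**
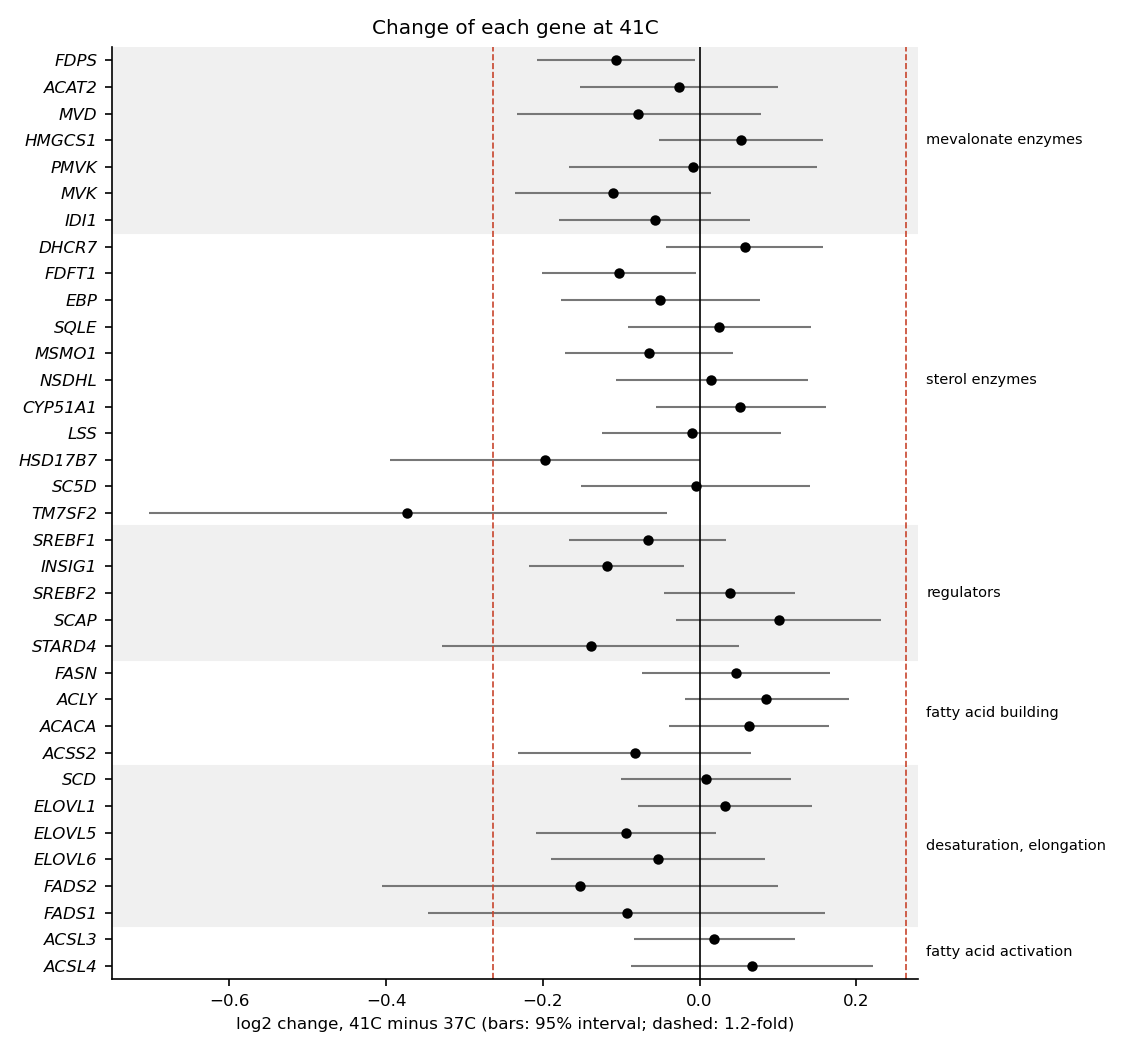
Log2 change of each of the 35 genes, 41C minus 37C, from edgeR (points), with 95% intervals (bars), ordered by role; the dashed lines mark 1.2-fold in either direction. The intervals of 30 genes stay between the dashed lines, and TM7SF2 has the widest one.

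The level of transcript differed far more between the genes than between the temperatures. On the FPKM scale (counts per kilobase and per 1e6 counts, which allows genes to be compared), the mean over the 6 libraries ran from 2.08 for FADS1 to 1657 for SCD. SCD, the desaturase that makes monounsaturated fatty acids, had 1662 ± 81.0 FPKM at 37C and 1651 ± 72.8 FPKM at 41C (SD, n = 3). It held the second highest total of counts of any gene in the table and gave 52.7 to 54.1% of the counts of the 35 genes. Next came SREBF1 and the fatty acid synthase gene FASN, with mean levels of 189 and 188 FPKM, which did not differ beyond their spread, and then ACLY with 129.9. In the sterol arm FDPS, DHCR7, FDFT1 and EBP were the most abundant, at 120.1, 109, 99.3 and 88.7 FPKM. TM7SF2, FADS2 and FADS1 were the only 3 of the 35 below 5 FPKM. FADS1 and FADS2 encode the desaturases of polyunsaturated fatty acids.

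**Figure D2:**
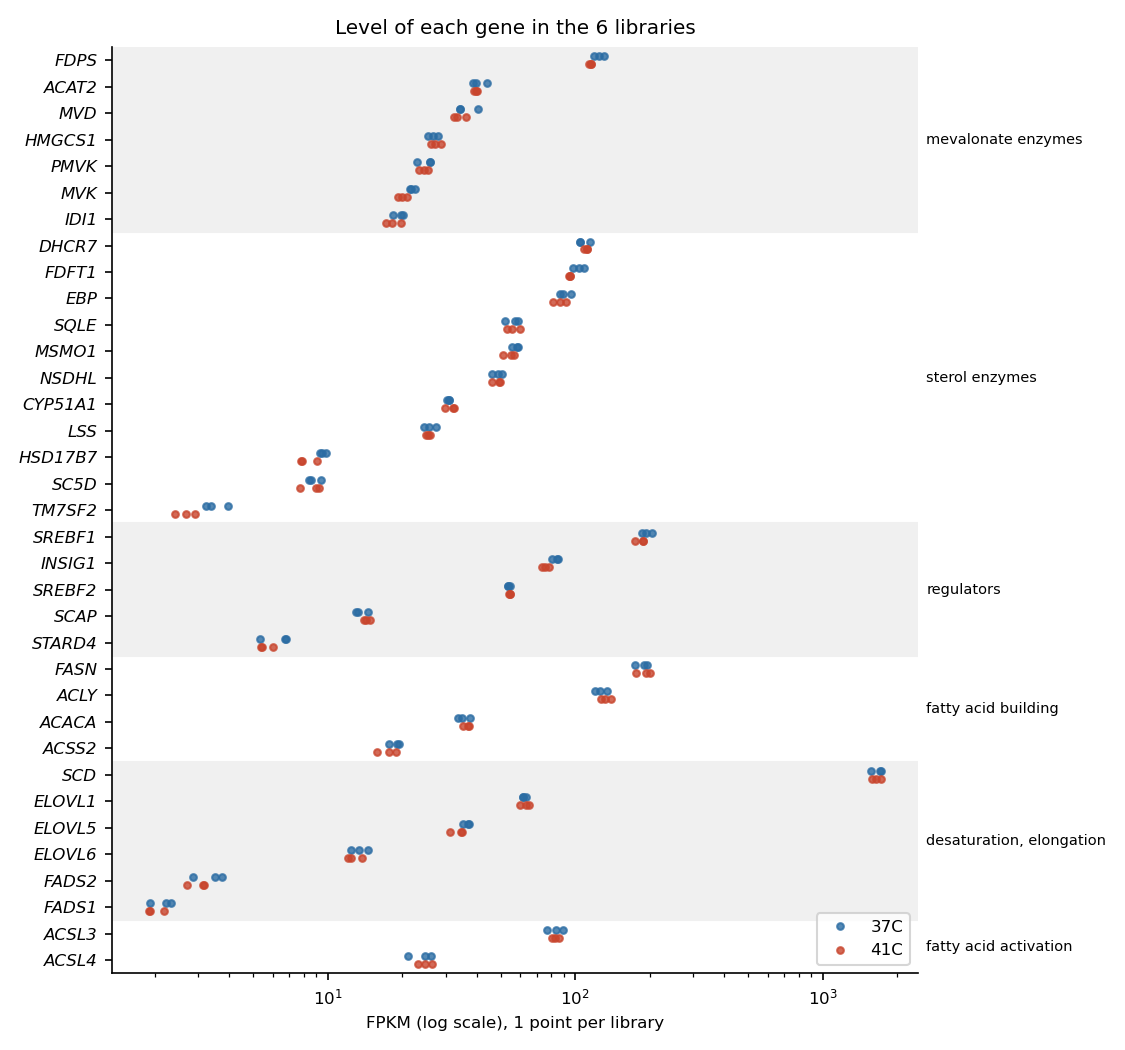
FPKM of the 35 genes on a log scale, 1 point per library, blue for 37C and red for 41C, ordered by role and, within a role, by level. SCD lies between 1569 and 1728 FPKM, far to the right of the other genes, and the blue and red points of each gene lie close together.

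INSIG1 had the smallest p-value of the 35 genes. It encodes the sterol-sensing retention protein of the endoplasmic reticulum and is itself a classic SREBP target. Its level was 210.2, 222.5 and 226 CPM in 37C replicates 1, 2 and 3 and 194, 209 and 203 CPM in 41C replicates 1, 2 and 3. All the heated libraries lay below all the control libraries, by about 1 CPM at the closest approach. The fold was 0.921 with a 95% interval of 0.86 to 0.987 (log2 change -0.12 ± 0.05, unadjusted p = 0.0218, edgeR adjusted p = 0.277).

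The transcripts of the SREBP factors themselves had narrow bounds. SREBF2, whose product mainly drives sterol genes, had 385, 396 and 390.4 CPM in the 37C libraries and 399, 402 and 402 CPM in the 41C libraries. The groups did not overlap, with 41C the higher, but the fold was only 1.03 (0.969 to 1.09; edgeR adjusted p = 0.73). SREBF1, whose products drive fatty acid genes as well as sterol genes, had 936, 1031 and 986 CPM at 37C and 893, 960.3 and 968 CPM at 41C. Those groups overlapped (fold 0.955, 0.891 to 1.02; edgeR adjusted p = 0.584). Its alternative first exons give different proteins, and counts per gene do not tell these apart.

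SCAP, the escort protein of the SREBP factors, had 58.5, 59.95 and 66.35 CPM at 37C and 64.0, 65.7 and 68.5 CPM at 41C, overlapping ranges with a fold of 1.07 (0.979 to 1.175; edgeR adjusted p = 0.503). STARD4, a sterol transfer protein of the cytosol and an SREBP2 target, had 67.7, 67.7 and 53.8 CPM at 37C and 55.1, 61.4 and 55.3 CPM at 41C. The third control library was as low as the heated ones, while the other two controls were higher. STARD4 was the only 1 of the 35 genes to pass in any fit: without 37C replicate 3 its log2 change was -0.24 (edgeR adjusted p = 0.0102), in a fit that called 6.62% of all genes, against -0.14 with all libraries (edgeR adjusted p = 0.521).

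Promoter windows were searched for letters that SREBP factors and their partners are known to bind, because many of the 35 genes are known SREBP targets. Windows of 300 bases, 250 before and 50 after the annotated start, were found in RefSeq (GRCh38.p14) for 31 of the 35 genes, 8 of which had more than 1 window. The motifs, on both strands, were a sterol regulatory element (SRE, TCACNCCAC), the NF-Y box (CCAAT), the E-box (CACGTG) and the GC box bound by Sp1 (GGGCGG). These are the windows of SREBF2 (chr22:41832855-41833154), INSIG1 (chr7:155297628-155297927), MVK (chr12:109573544-109573843) and SCD (chr10:100346983-100347282), all on the + strand. They are shown because SREBF2 was the only 1 of the 31 with the SRE letters, INSIG1 had the smallest p-value, MVK shared with NSDHL the highest number of NF-Y boxes in a single window, and SCD had the highest level. Capitals mark SRE and NF-Y letters (ATTGG is the NF-Y box on the other strand).
SREBF2: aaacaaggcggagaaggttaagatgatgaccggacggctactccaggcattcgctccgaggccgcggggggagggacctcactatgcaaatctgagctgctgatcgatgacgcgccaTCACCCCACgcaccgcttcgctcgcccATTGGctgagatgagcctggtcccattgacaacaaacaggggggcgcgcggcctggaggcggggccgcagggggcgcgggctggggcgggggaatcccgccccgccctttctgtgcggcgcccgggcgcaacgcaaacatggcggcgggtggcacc
INSIG1: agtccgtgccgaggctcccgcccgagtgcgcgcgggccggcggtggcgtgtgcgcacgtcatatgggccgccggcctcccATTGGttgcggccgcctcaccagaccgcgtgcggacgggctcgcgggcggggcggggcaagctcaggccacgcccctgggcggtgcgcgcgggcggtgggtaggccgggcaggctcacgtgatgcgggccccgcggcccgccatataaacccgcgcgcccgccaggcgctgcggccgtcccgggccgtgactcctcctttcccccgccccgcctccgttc
MVK: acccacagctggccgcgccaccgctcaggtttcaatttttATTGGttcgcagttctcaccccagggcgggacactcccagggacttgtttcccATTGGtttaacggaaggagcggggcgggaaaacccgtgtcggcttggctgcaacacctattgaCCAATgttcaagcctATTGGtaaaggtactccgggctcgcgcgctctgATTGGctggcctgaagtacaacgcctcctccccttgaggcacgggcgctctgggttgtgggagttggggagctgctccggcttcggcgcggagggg
SCD: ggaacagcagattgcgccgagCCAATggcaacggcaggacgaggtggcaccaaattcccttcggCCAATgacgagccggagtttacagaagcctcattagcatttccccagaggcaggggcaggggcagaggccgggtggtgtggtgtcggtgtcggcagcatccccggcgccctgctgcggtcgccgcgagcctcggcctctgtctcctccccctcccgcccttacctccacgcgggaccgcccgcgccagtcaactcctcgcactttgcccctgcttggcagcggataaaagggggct

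The SRE letters of SREBF2 began 133 bases before its annotated start. An NF-Y box stood in 24 of the 31 genes (77.4%), 13 of 15 in the sterol arm and 8 of 11 in the fatty acid arm, compared with 43.7% of the 9812 tested genes that had a window and 39.7% of all 27305 genes that had one. The GC box stood in 29 of the 31 (93.5%, against 77.3% of tested and 48.3% of all genes), the E-box in 5 (16.1%, against 12.7% and 8.77%) and the SRE in 1 (3.23%, against 1.46% and 1.39%). MVK held 5 NF-Y boxes, SCD 2, and INSIG1 and SREBF2 1 each. A match of letters is a description of the window, not a bound site, and a window without the SRE letters may hold other forms of the element.

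**Figure D3:**
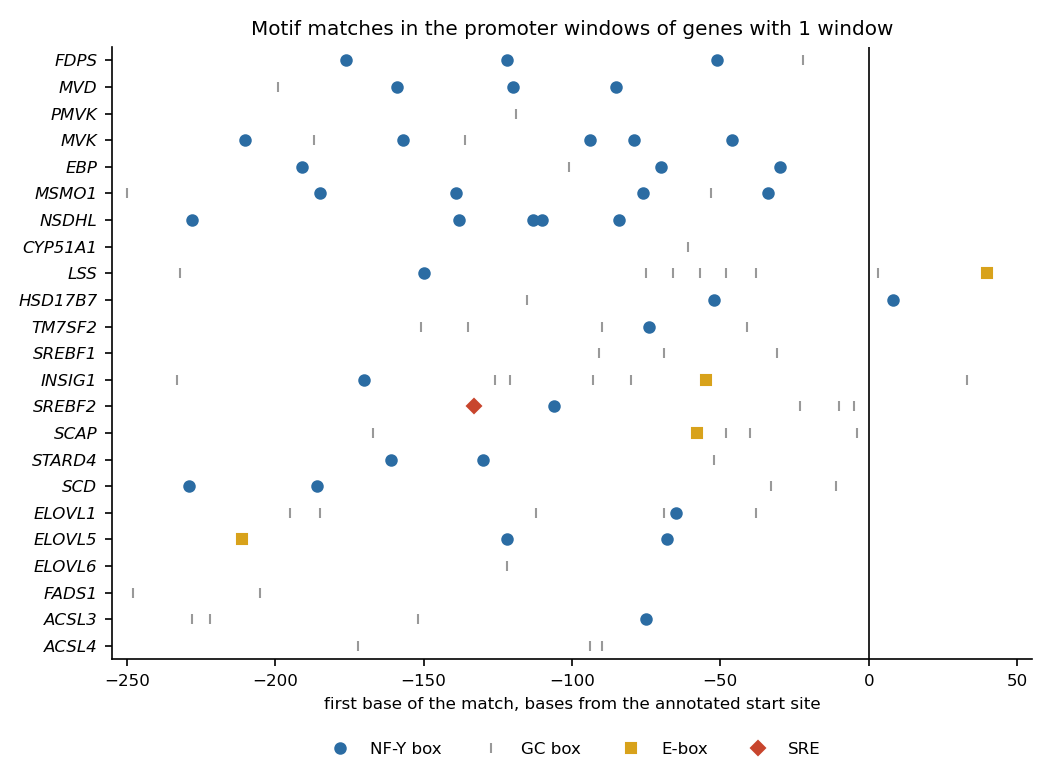
Position of motif matches, in bases from the annotated start site (0), for the 23 genes that have 1 promoter window; circles are NF-Y boxes, bars GC boxes, squares E-boxes and the diamond the SRE. NF-Y boxes are most frequent among the sterol arm genes at the top, and the single SRE is in SREBF2.

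In the mevalonate route, 6 of 7 genes had a negative log2 change, against 5923 of the 12056 genes tested. All 7 intervals lay within 1.2-fold. FDPS, which makes farnesyl pyrophosphate for sterols and protein prenylation, had 200.5, 211 and 223 CPM at 37C and 192.5, 198 and 199 CPM at 41C. The ranges did not overlap, and the heated libraries were more alike than the controls (fold 0.929, 0.866 to 0.996; edgeR adjusted p = 0.334). MVK, the mevalonate kinase gene, had 58.0, 59.1 and 61.6 CPM at 37C and 54.7, 57.5 and 53.4 CPM at 41C, also without overlap and lower at 41C (fold 0.926, 0.849 to 1.01; edgeR adjusted p = 0.422). HMGCS1, the HMG-CoA synthase of the cytosol, was the member with a positive value. It had 178, 171 and 164 CPM at 37C and 186, 176 and 171 CPM at 41C, overlapping ranges (fold 1.04, 0.965 to 1.12; edgeR adjusted p = 0.699). The thiolase gene ACAT2, the kinase gene PMVK, the decarboxylase gene MVD and the isomerase gene IDI1 had log2 changes of -0.03, -0.01, -0.08 and -0.06, and their groups overlapped.

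After farnesyl pyrophosphate, the enzymes of squalene and sterol formation had log2 changes on both sides of 0, with 7 of 11 negative. FDFT1, the squalene synthase at the branch toward sterols, had 405, 432 and 455.5 CPM at 37C and 396, 402 and 406 CPM at 41C. The lowest control fell just below the highest heated library, so the groups overlapped (fold 0.931, 0.87 to 0.996; edgeR adjusted p = 0.336). SQLE, the squalene epoxidase and a rate-limiting enzyme of the pathway, had 184, 169 and 193 CPM at 37C and 196, 184 and 176 CPM at 41C, with overlap (fold 1.02, 0.939 to 1.1; edgeR adjusted p = 0.8905). DHCR7, the terminal reductase whose substrate is also the precursor of vitamin D in skin, was the most abundant per length of these 11 genes. It had 284, 288 and 317 CPM at 37C and 301, 311 and 313 CPM at 41C, with overlap (fold 1.04, 0.971 to 1.12; edgeR adjusted p = 0.649).

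The lowest folds of the sterol arm belonged to the genes with the fewest counts. TM7SF2, a sterol reductase, had 5.02, 6.22 and 5.32 CPM at 37C and 3.84, 4.27 and 4.68 CPM at 41C, from 80 to 123 counts per library. The groups were apart by a narrow margin, and the interval of the fold was wide (0.772, 0.614 to 0.971; edgeR adjusted p = 0.298). HSD17B7, which reduces a keto group of the sterol ring, had 17.1, 16.3 and 16.7 CPM at 37C and 13.9, 15.9 and 13.85 CPM at 41C. Its groups did not overlap either (fold 0.873, 0.761 to 1.0; edgeR adjusted p = 0.368), and it has annotated pseudogenes that may share its reads. Across the sterol arm 4 of 18 genes had separate groups, all lower at 41C; 8.84% of all genes tested were separate in that direction. The other members, LSS, CYP51A1, MSMO1, NSDHL, EBP and SC5D, had log2 changes from -0.07 (MSMO1) to 0.05 (CYP51A1), all with overlapping groups and edgeR adjusted p from 0.623 to 0.99.

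The enzymes that build fatty acids had mostly positive values within narrow bounds. ACLY, which makes cytosolic acetyl-CoA from citrate, had 534, 561 and 600.2 CPM at 37C and 572, 626 and 601 CPM at 41C, overlapping ranges (fold 1.06, 0.987 to 1.14; edgeR adjusted p = 0.468). ACACA, the carboxylase that makes malonyl-CoA, had 374, 422 and 392 CPM at 37C and 398, 422 and 421 CPM at 41C (fold 1.045, 0.973 to 1.12; edgeR adjusted p = 0.615). FASN, the fatty acid synthase, had 1460, 1636 and 1601 CPM at 37C and 1490, 1707 and 1653 CPM at 41C (fold 1.03, 0.95 to 1.12; edgeR adjusted p = 0.785). In FASN the first library of each temperature was the lowest of its group. ACSS2, which makes acetyl-CoA from acetate, was the 1 of these 4 genes with a negative value, with 56.6, 61.3 and 62.55 CPM at 37C and 51.0, 61.15 and 58.2 CPM at 41C (fold 0.944, 0.851 to 1.05; edgeR adjusted p = 0.6595).

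Among the desaturases and elongases 4 of 6 log2 changes were negative, and none passed. SCD had 8124, 8940 and 8941 CPM in the 37C libraries and 8314, 9109 and 8735 CPM in the 41C libraries. The groups overlapped almost fully, and the fold was 1.01 with an interval of 0.933 to 1.085 (edgeR adjusted p = 0.969). The neighbouring genes FADS1 and FADS2 were measured on few counts (171 to 208 and 202 to 265 per library). FADS2 had 12.4, 13.4 and 10.3 CPM at 37C and 9.70, 11.4 and 11.4 CPM at 41C (fold 0.90, 0.755 to 1.07; edgeR adjusted p = 0.623), and FADS1 had a log2 change of -0.09 ± 0.12. Exons of these neighbours overlap on opposite strands, and whether the counting used strand is unknown here.

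ELOVL5, an elongase of polyunsaturated fatty acids, had 135, 137 and 131 CPM at 37C and 116, 129.9 and 132 CPM at 41C (fold 0.937, 0.865 to 1.015; edgeR adjusted p = 0.471). The first heated library was the lowest of the 6, and the other two heated libraries lay close to the controls. ELOVL6, an elongase of saturated and monounsaturated fatty acids, had 96.2, 88.9 and 82.8 CPM at 37C and 92.25, 83.7 and 82.3 CPM at 41C, overlapping ranges (fold 0.964, 0.877 to 1.06; edgeR adjusted p = 0.78). ELOVL1, an elongase of very long chain fatty acids, had a log2 change of 0.03 ± 0.05. The acyl-CoA synthetase ACSL3, which activates fatty acids for lipid synthesis, had 490.1, 464 and 431 CPM at 37C and 482, 467 and 455 CPM at 41C (fold 1.01, 0.944 to 1.09; edgeR adjusted p = 0.907). ACSL4, which prefers arachidonic acid, had 129, 124 and 106 CPM at 37C and 125, 133 and 119 CPM at 41C (fold 1.05, 0.942 to 1.17; edgeR adjusted p = 0.743). In both synthetases the third control library was the lowest of the 6.

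Set side by side, the arms differed by a few hundredths on the log2 scale. The median log2 change was -0.038 over the 18 sterol genes and 0.014 over the 12 fatty acid genes, compared with 0.002 over all genes tested. Values were negative for 13 of 18 genes in the sterol arm and 5 of 12 in the fatty acid arm, against 5923 of the 12056 genes tested. Genes of an arm moved together within libraries to a small degree, so these signs are not independent. The difference of the medians was -0.052, and its spread among single libraries of a temperature had an SD of 0.054. That SD is for 1 library, not for a contrast of 3 libraries with 3, and the difference was not tested. The difference was 0.024, with the order of the arms turned round, without 37C replicate 3. The fatty acid median was -0.006 under upper-quartile scaling, and that of all genes was -0.018; on the FPKM scales the fatty acid median was -0.004 and that of all genes -0.011 and -0.014. In each of these scaling fits the fatty acid arm lay above the median of all genes. With the gene length correction it lay below, at 0.016 against 0.025 for all genes, and the difference of the arms was -0.026. With the GC correction it lay above, at 0.032 against 0.024. Dropping a single library could also turn the sign of the fatty acid median. The fatty acid median was -0.005 (all genes 0.001) when 37C replicate 1 was dropped. It was -0.019 (all genes -0.004) after removal of 37C replicate 3. Removal of 41C replicate 2 gave -0.009 (all genes 0.002). In those fits the arm lay below all genes. With any other library dropped it stayed positive, at 0.003 to 0.021. Why the sign turned was not tested. Summed over the sterol arm, the level was 2227, 2241 and 2377 CPM in the 37C libraries and 2220, 2276 and 2209 CPM in the 41C libraries. The third control library was the highest and the other 5 lay close together, and the ratio of the means was 0.98. Summed over the fatty acid arm without SCD, the level was 3400.0, 3623 and 3534 CPM at 37C and 3446, 3759 and 3652 CPM at 41C, with overlapping ranges. With SCD the ratio of the means was 1.01.

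Library by library, the members of an arm moved together to a small degree, and libraries of the same temperature differed. In 37C replicate 3, 14 of the 18 sterol genes lay above their own mean over the 6 libraries, as did 14 in 41C replicate 2, whereas 3 did in 41C replicate 3 and 4 in 41C replicate 1. In 37C replicates 1 and 2, 9 and 7 did. On the log2 scale, the mean deviation of the sterol arm was 0.005, 0.003 and 0.074 at 37C and -0.048, 0.017 and -0.05 at 41C. The groups overlapped, with the lowest values at 41C. For the fatty acid arm, 9 of 12 lay above their mean in 37C replicate 2 and 10 in 41C replicate 2, but 3 in 41C replicate 1. The mean deviation of the sterol arm less that of the fatty acid arm was 0.021, -0.052 and 0.095 on the log2 scale in the 37C libraries and 0.019, -0.032 and -0.05 in the 41C libraries. These ranges overlapped, and the widest contrast was between replicates 2 and 3 of the control group. The median SD of a gene between replicates of a temperature was 0.074 on the log2 scale for the 35 genes and 0.093 over all genes tested, which were not matched by counts.

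**Figure D4:**
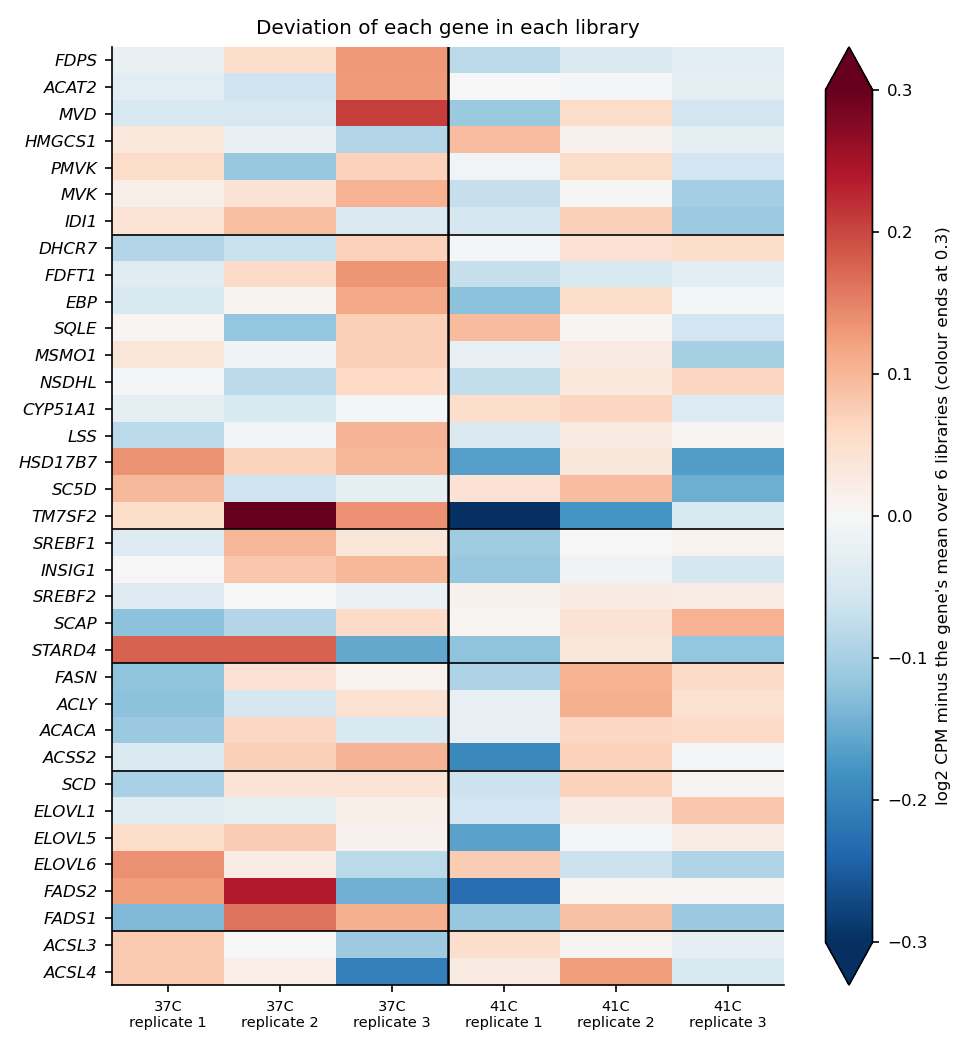
Log2 CPM of each gene in each library minus the gene's mean over the 6 libraries; red is above and blue below the mean, and horizontal lines separate the roles. Of the 18 sterol genes, 14 lie above their mean in 37C replicate 3 and 14 in 41C replicate 2. Most lie below it in 41C replicates 1 and 3, and TM7SF2 has the darkest cells.

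**Figure D5:**
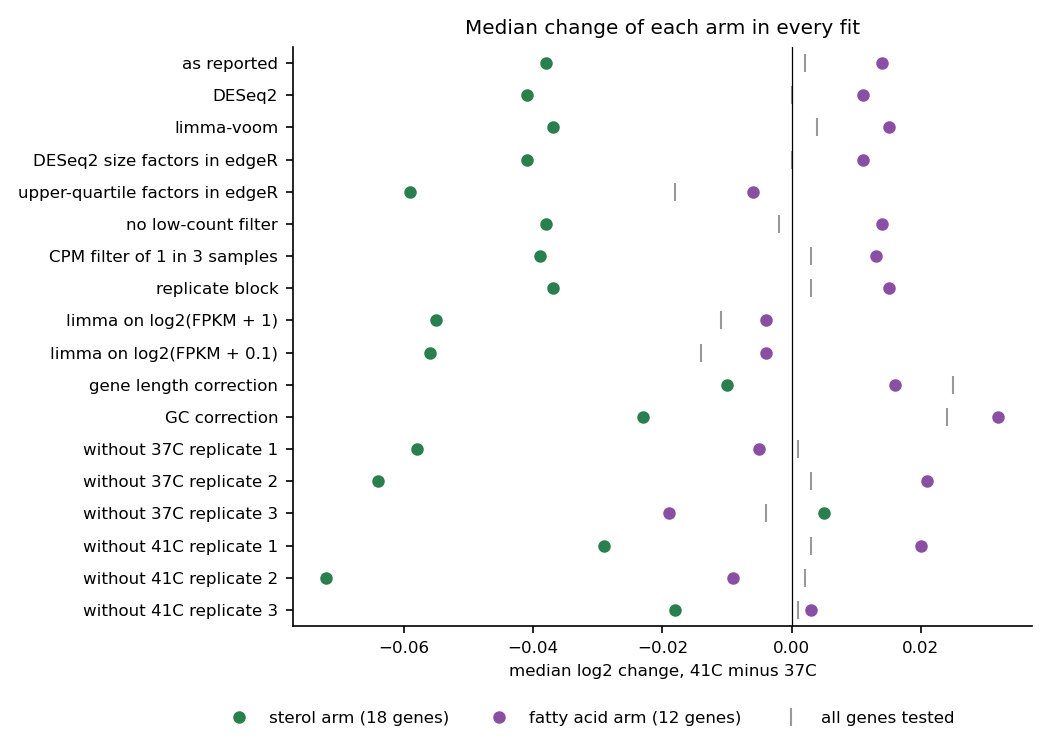
Median log2 change, 41C minus 37C, of the sterol arm (green), the fatty acid arm (purple) and all genes tested (grey bars) in the fit as reported and in 17 alternatives. The sterol median lies left of the fatty acid median in each fit shown except the one without 37C replicate 3, where it is 0.005 against -0.019.

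Other genes of the pathways, from lists beside the 35, gave 0 calls in either direction. Of 53 tested, 29 had a positive and 24 a negative log2 change, with a median of 0.004, and 8 had an unadjusted p under 0.05, 3 of them higher and 5 lower at 41C. That share is near the 13.7% of all genes tested. Among 12 other genes of sterol and isoprenoid synthesis, NUS1, a subunit of the dolichol-forming transferase, and LBR, a nuclear envelope protein with the same reductase activity as TM7SF2, had the smallest p-values. NUS1 had 30.4, 30.4 and 32.1 CPM at 37C and 25.4, 25.4 and 26.6 CPM at 41C (fold 0.833, 0.75 to 0.926; edgeR adjusted p = 0.09275). LBR had 95.4, 98.25 and 86.3 CPM at 37C and 82.6, 81.3 and 79.4 CPM at 41C (fold 0.869, 0.798 to 0.946; edgeR adjusted p = 0.106). The heated libraries lay below the controls in both genes, as they did in TM7SF2, and none of the 3 passed.

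Sterol uptake, efflux and storage genes gave the same count of calls. Among 15 genes of SREBP processing and uptake the median log2 change was 0.024, and for SCARB1, a lipoprotein receptor, the log2 change was 0.16 ± 0.09 (edgeR adjusted p = 0.426). Among 9 genes of sterol efflux and storage the median was 0.004. ABCA1, the exporter of cholesterol and a target of the LXR receptors, had 10.8, 13.05 and 8.71 CPM at 37C and 7.49, 8.30 and 8.46 CPM at 41C (fold 0.743, 0.606 to 0.911; edgeR adjusted p = 0.166). The ranges did not overlap, but the control libraries differed from each other by more than the gap. For NCOR1, a corepressor of nuclear receptors, the log2 change was 0.14 ± 0.04 (edgeR adjusted p = 0.163). Among 17 other tested genes of fatty acid synthesis the median was -0.017, and the smallest p-values were those of the acyl-CoA synthetase ACSL1 (-0.17 ± 0.06; edgeR adjusted p = 0.206) and the elongase ELOVL4 (0.62 ± 0.22; edgeR adjusted p = 0.2135, with a mean of 1.83 CPM at 37C).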

How the data were processed

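Per the labels' protocols, RNA from a mirVana kit went into TruSeq Stranded mRNA libraries. The submitters' processing notes name Trimmomatic 0.36, HISAT2 and GRCh38.p13; the sources used here do not state the counter, its annotation or its strand option. The deposited table of raw counts per gene symbol was used for all tests except the alternatives on the FPKM scales. The FPKM table deposited by the authors equals the same counts per length and library total (within 0.01% for 100% of values). It gave levels, gene lengths and those alternatives.

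Counts were tested in edgeR 4.0.16 (R 4.3.3): filterByExpr (12056 genes), TMM scaling, robust quasi-likelihood fit on 6 libraries, two-sided, Benjamini-Hochberg over all genes, threshold 0.05. The 95% intervals use the standard error and moderated degrees of freedom. An exact permutation test of 1 gene cannot go below 0.1 with 3 against 3. Replicates differed by more than sampling noise (chi-square per degree of freedom 2.42 to 10.7). The pairs of 37C replicate 3 with 37C replicates 1 and 2 gave 10.7 and 7.47. The other control pair gave 3.77, and the pairs at 41C gave 2.42 to 4.18. Alternatives used DESeq2 1.42.0, limma 3.58.1, other scalings and filters, a replicate block, a gene length trend and each library left out; a GC trend (GENCODE release 29) was added after the data were seen.

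The 35 genes and the lists were chosen with earlier results of these data known. By rule, values per library are given for the 3 members of smallest p and the most abundant in each role, any past the threshold, and HMGCS1, SQLE, INSIG1, SREBF1, SREBF2, SCD and FASN; of each other list, the 2 genes of smallest p are named, except a gene that is not reported here. Exons of ACAT2, MVK, SREBF1, FADS1 and FADS2 overlap another counted gene on the opposite strand, and FDPS, CYP51A1, HSD17B7, SCD and FADS2 have annotated pseudogenes, so these counts are uncertain to that extent.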

Additional observations from a re-analysis of the deposited data

How the results depend on the processing

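The count of 0 members called higher held in all 17 alternatives, and the count of 0 called lower in all but 1: leaving out 1 library gave 0 to 1, the 1 being STARD4 without 37C replicate 3. DESeq2 gave an adjusted p to 25 of the 35 members, and its counts cover these. Leaving out 1 library gave medians of -0.072 to 0.005 for the sterol arm, -0.019 to 0.021 for the fatty acid arm and -0.085 to 0.024 for their difference; the alternatives with all libraries gave -0.055 to -0.026 for the difference. Members that did not pass changed sign in 12 of 385 values with all libraries. These were -0.005 (NSDHL) and -0.012 (SCD) with upper-quartile factors, -0.003 (NSDHL) and -0.01 (SCD) with log2(FPKM + 1) and with log2(FPKM + 0.1), 0.033 (ACAT2), 0.072 (PMVK) and 0.038 (EBP) with the gene length correction, and 0.011 (PMVK), 0.007 (LSS) and 0.025 (SC5D) with the GC correction. The upper-quartile and FPKM settings moved the median of all genes from 0.002 to -0.018, -0.011 and -0.014, and the length and GC corrections moved it to 0.025 and 0.024. With the length correction ACAT2 (from -0.026), PMVK (from -0.008) and EBP (from -0.05) moved further than that median. The cause of the changes of sign was not tested, and they are not read as results about these genes. With 1 library left out, the log2 change crossed 0 in 12 genes: ACAT2 (-0.065 to 0.035), ACSL3 (-0.027 to 0.059), ACSL4 (-0.011 to 0.119), ELOVL1 (-0.001 to 0.068), FASN (-0.008 to 0.102), LSS (-0.058 to 0.041), MVD (-0.128 to 0.014), NSDHL (-0.023 to 0.055), PMVK (-0.067 to 0.025), SC5D (-0.053 to 0.063), SCD (-0.042 to 0.042) and SQLE (-0.028 to 0.07). The number of all genes called was 131, 217 with DESeq2, 284 with no filter, 24 and 41 on the FPKM scales, 500 with the GC correction and 5 to 805 with 1 library left out. The 805 came from the fit without 37C replicate 3, and the 5 from the fit without 41C replicate 2.

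Replicate numbers were not treated as pairs, because the labels do not say that they pair libraries. Same-numbered libraries correlated in their deviations at 0.122, -0.008 and 0.12, and differently numbered ones at -0.201 to 0.09. These values do not settle whether same-numbered libraries share a batch. A replicate block in the model called 438 of all genes, against 131 without it. It called 0 of the 35, with the smallest edgeR adjusted p at 0.0954 for INSIG1. Depth limits TM7SF2, FADS1, FADS2 and HSD17B7, where a difference of 1.2-fold lies within the interval.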
